A study of Macaca mulatta with 34 samples.

Results

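The let-7 family is a group of microRNAs made from several hairpin genes that share nearly the same mature sequence. In the rhesus macaque cerebellum it was followed here in 6 small RNA libraries of a study made to trace the source of AAV.miS1 toxicity. Members were the microRNA genes whose symbol names let-7 or miR-98, matched through the macaque gene identifiers of the count tables. The rule found 11 genes among 538 microRNA genes and 34847 identifiers. These were let-7a-1, let-7a-2, let-7a-3, let-7c, let-7d, let-7e, let-7f-1, let-7f-2, let-7g, let-7i and miR-98. No identifier carried the symbol of let-7b, so let-7b is not counted in any family total below.

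A microRNA hairpin is cut by Drosha and Dicer into a short mature strand, which guides Argonaute to messenger RNAs and lowers their output. The let-7 microRNAs rise as stem cells and neural progenitors mature, remain abundant in the adult brain, and are known for holding down growth genes such as MYC and HMGA2. Their own maturation is blocked by the LIN28 proteins. Of these, LIN28A binds the let-7 precursor and brings in the enzymes TUT4 and TUT7 to tag it with uridines for decay by DIS3L2.

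AAV.miS1 is a recombinant adeno-associated virus (rAAV2/1) that carries miS1, an artificial microRNA expressed through the same processing machinery. All animals were rhesus macaques (Macaca mulatta) that received their injection, guided by magnetic resonance imaging, in the deep cerebellar nuclei (DCN), through which the cerebellum sends its output. Small RNA came from cerebellar tissue labelled intermediate deep, with 3 libraries from AAV.miS1 and 3 from vehicle. The sources used here do not give age, dose or time after injection. The labels of the small RNA libraries carry no animal identifiers, so p-values on them measure only the spread between these libraries. Total RNA of the same study came from DCN, with 6 AAV.miS1 and 4 vehicle libraries, and was used for the genes around let-7.

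Counts in genes came to 4756968, 9879519 and 4931347 for AAV.miS1 replicates 1 to 3, and to 7421542, 10629988 and 8409548 for the vehicle replicates. MicroRNA genes took 23.0% to 30.9% of these counts. The brain microRNA miR-9-2 was the most abundant microRNA gene in each library, with 28.2% to 47.3% of microRNA counts, and the neuronal miR-124-3 stood at 387 to 603 reads per 1000000 counts in genes (RPM). The oligodendrocyte microRNA miR-338 stood at 52.8 to 114 RPM. AAV.miS1 replicate 2 stood apart from the other 5 libraries. It held 77.6 RPM of the leukocyte microRNA miR-155, against 0.42 to 4.76 RPM in the others, and 178 RPM of the red cell microRNA miR-451, against 1.62 to 10.3. The other red cell microRNAs matched, miR-486-1 and miR-144, stood at 113 and 0.20 RPM in it, against 60.2 to 98.9 and 0 to 0.27 RPM. Over all 7 leukocyte microRNAs the summed level was 11579, 13876 and 5663 RPM with AAV.miS1 and 11273, 7783 and 10634 RPM with vehicle, and miR-342 alone held 5026 to 10977 RPM of it. In bulk tissue, fewer cells of a type and less RNA per cell cannot be told apart.

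The 11 genes together held 5593, 9470 and 6707 RPM in the AAV.miS1 libraries and 8479, 9176 and 8002 RPM in the vehicle libraries. AAV.miS1 replicates 1 and 3 lay below every vehicle library, and AAV.miS1 replicate 2 lay above all of them, so the groups overlapped. The means were 7256 ± 1996 RPM (SD, n = 3) with AAV.miS1 and 8553 ± 590.4 RPM (SD, n = 3) with vehicle, a ratio of 0.848. The difference of -1296 RPM (AAV.miS1 minus vehicle) was smaller in size than the SD of the AAV.miS1 group.

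Set against microRNA counts alone, the groups were closer. The family made up 2.43% (95% Wilson interval 2.40 to 2.46), 3.15% (3.13 to 3.17) and 2.87% (2.84 to 2.91) of microRNA counts in the AAV.miS1 libraries. In the vehicle libraries it made up 2.75% (2.73 to 2.77), 3.52% (3.50 to 3.54) and 2.73% (2.71 to 2.75). The intervals cover counting error only and are far narrower than the gaps between libraries of one group. The means were 2.82% ± 0.363 (SD, n = 3) and 3.001% ± 0.452 (SD, n = 3). The sign of this small difference turned without AAV.miS1 replicate 1 (0.0114 percentage points higher with AAV.miS1), without vehicle replicate 2 (0.0781 higher) and when miR-9-2 was left out of the total (0.046 higher).

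**Figure D1:**
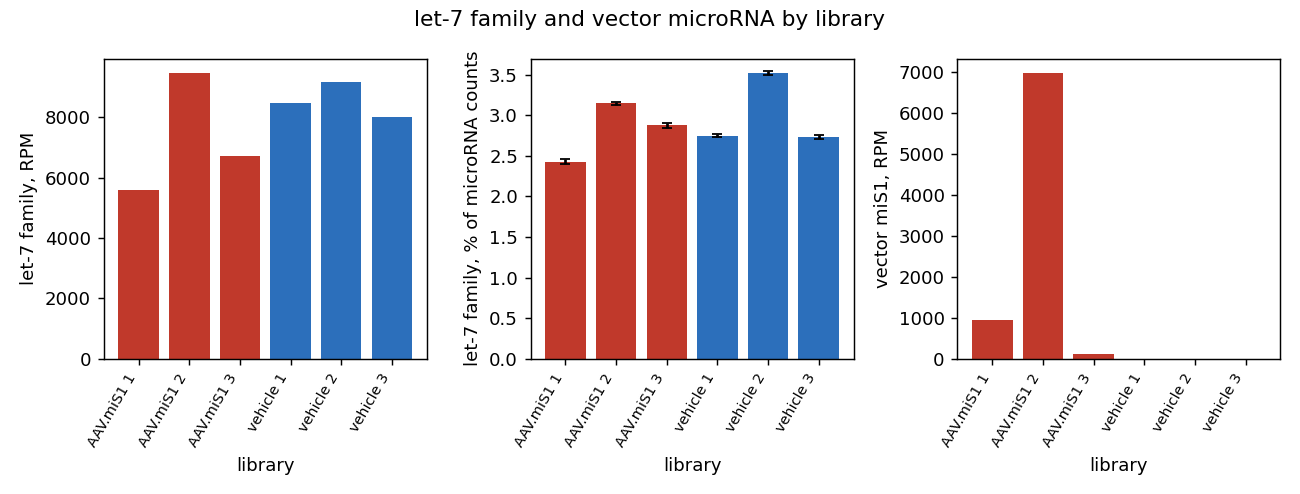
Bars give, for each of the 6 small RNA libraries, the summed let-7 level in RPM (left), the let-7 share of all microRNA counts in percent with 95% Wilson intervals as error bars (middle) and the vector microRNA miS1 in RPM (right). The let-7 bars of the groups overlap in both scales, while miS1 ranges from 107 to 6973 RPM among the AAV.miS1 libraries.

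The vector's own microRNA was read in the same libraries. The miS1 feature held 946, 6973 and 107 RPM in the AAV.miS1 libraries and 1.08, 0 and 1.19 RPM in the vehicle libraries. The 0 in vehicle replicate 2 allows up to 0.282 RPM. For every 100 let-7 counts there were 16.9, 73.6 and 1.59 miS1 counts with AAV.miS1, and at most 0.0149 with vehicle. In AAV.miS1 replicate 2 the single vector microRNA thus stood near let-7a-3, the leading family member, at 7642 RPM. The order of the 3 AAV.miS1 libraries by miS1 (replicate 2, 1, 3) was not their order by let-7 (replicate 2, 3, 1). With 3 libraries no correlation between miS1 and let-7 was computed.

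The family was very uneven. let-7a-3 alone held 80.0% to 83.0% of the family's counts in each library and ranked 8 among the microRNA genes by mean RPM over the 6 libraries. Its levels were 4472, 7642 and 5456 RPM with AAV.miS1 and 7039.5, 7467 and 6499 RPM with vehicle. AAV.miS1 replicates 1 and 3 were lower than all vehicle libraries and replicate 2 was higher than all of them. The means were 5857 ± 1623 RPM (SD, n = 3) and 7002 ± 485 RPM (SD, n = 3). let-7c, encoded beside miR-99a and miR-125b-2, ranked 23 among the microRNA genes. It stood at 720.4, 1217 and 664 RPM with AAV.miS1 and 806, 971 and 931 RPM with vehicle. Its AAV.miS1 values again lay on both sides of the vehicle range.

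The other 9 genes each had a mean under 125 RPM over the 6 libraries. In order of mean level they were let-7f-2 (122 RPM), let-7i (84.9), let-7f-1 (84.1), let-7a-2 (83.6), let-7e (77.0), let-7a-1 (63.7), let-7g (46.5), let-7d (15.8) and miR-98 (13.0). Neighbours in this order had overlapping values across the 6 libraries, apart from 3 steps. The steps from let-7a-3 to let-7c and from let-7c to let-7f-2, at 7.27-fold and 7.26-fold, and from let-7g to let-7d, at 2.95-fold, showed no overlap between libraries. RPM is not divided by gene length. The RefSeq table of assembly T2T-MMU8v2.0 lists these hairpins at 72 to 87 bases, and per base only let-7i, let-7f-1, let-7a-2 and let-7e changed places.

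**Figure D2:**
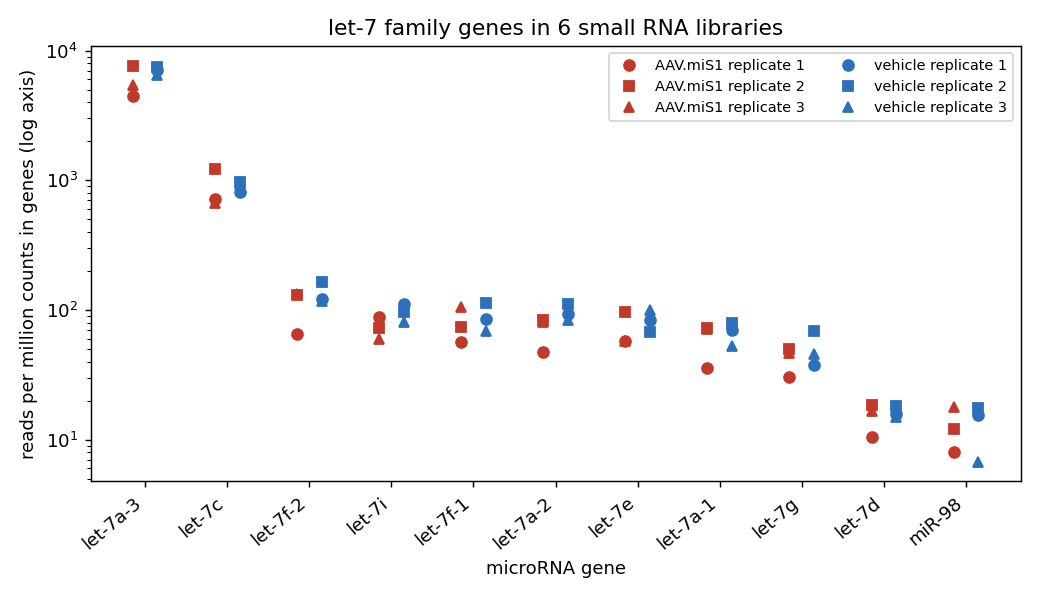
Each point is the RPM of one let-7 family gene (x axis) in one of the 6 libraries, on a log axis, with AAV.miS1 in red, vehicle in blue and the marker shape giving the replicate. let-7a-3 and let-7c stand far above the other 9 genes, and the red and blue points of every gene overlap.

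Genes that encode the same mature microRNA differed strongly in counts. let-7a-1, let-7a-2 and let-7a-3 all give mature let-7a, yet let-7a-3 held 76.9 to 125.9 times the counts of let-7a-1 and 66.6 to 94.5 times those of let-7a-2. let-7a-2 held 1.14 to 1.60 times the counts of let-7a-1. let-7f-2 held 1.14 to 1.74 times the counts of let-7f-1, with which it shares mature let-7f. The sources used here do not say how reads that fit several copies were assigned or whether they were kept. The split between copies is therefore uncertain, and their sum may be too. Because these hairpins share so much sequence, reads of let-7b could also have been counted under another member, which was not tested.

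Among the lower members, let-7f-2 stood at 65.0, 129 and 132 RPM with AAV.miS1 and 121, 165 and 118 RPM with vehicle. let-7f-1 stood at 57.0, 74.5 and 106 RPM against 84.9, 113 and 69.0 RPM. let-7a-2, encoded beside miR-100 and miR-125b-1, stood at 47.3, 84.3 and 81.1 RPM against 93.2, 112 and 83.8 RPM. For these genes AAV.miS1 replicate 1 was the lowest library, and the groups overlapped in each, for let-7a-2 only between AAV.miS1 replicate 2 and vehicle replicate 3.

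let-7i, which has no microRNA neighbour within 60 kb in RefSeq, stood at 88.7, 72.4 and 59.2 RPM with AAV.miS1 and 112, 95.9 and 81.5 RPM with vehicle. let-7e, which lies beside miR-99b and miR-125a, stood at 58.0, 95.9 and 57.6 RPM against 83.0, 68.1 and 99.3 RPM. let-7a-1 stood at 35.5, 73.0 and 71.0 RPM against 70.6, 79.6 and 52.6 RPM. let-7i was the only member for which AAV.miS1 replicate 1 was the highest AAV.miS1 library.

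let-7g stood at 30.3, 49.9 and 46.2 RPM with AAV.miS1 and 37.5, 69.3 and 45.9 RPM with vehicle. let-7d, which shares a cluster with let-7a-1 and let-7f-1, stood at 10.5, 18.5 and 16.6 RPM against 15.9, 18.1 and 14.98 RPM. miR-98, which lies beside let-7f-2, stood at 7.99, 12.1 and 17.8 RPM against 15.5, 17.6 and 6.78 RPM, from 38 to 187 counts per library. No member separated the groups, 0 of 11, against 1.95% of the 8311 genes tested and 3.32% of the 211 microRNA genes tested whose RPM did not overlap.

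**Figure D3:**
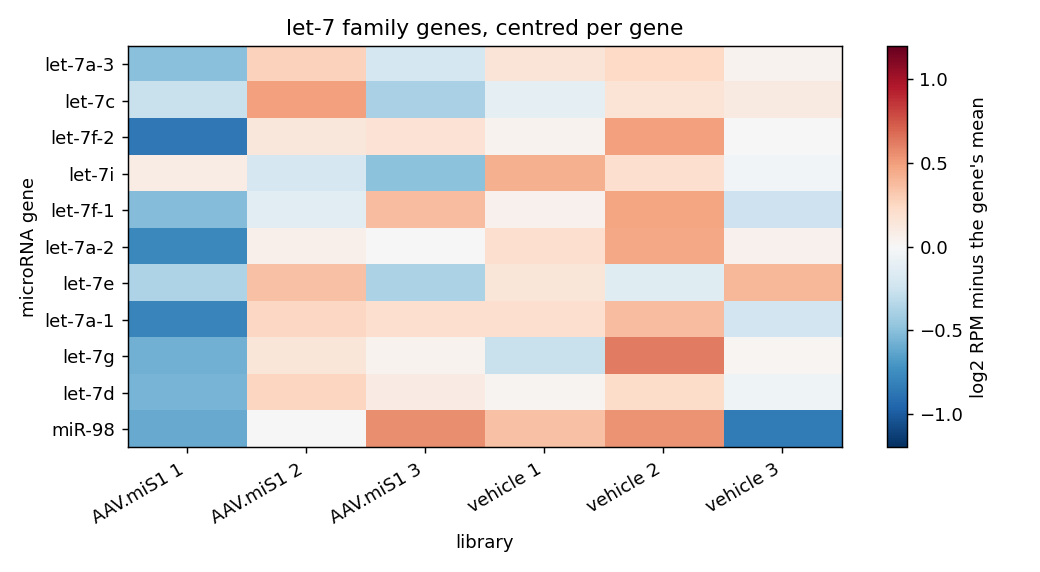
Colours give, for each let-7 family gene (rows) and library (columns), the log2 RPM minus the gene's mean over the 6 libraries. AAV.miS1 replicate 1 is below the mean for every member except let-7i, and vehicle replicate 2 is above it for every member except let-7e.

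All 11 genes passed the filter on low counts and were tested within a fit over all genes. By edgeR's quasi-likelihood test with Benjamini-Hochberg adjustment, 0 of 11 let-7 genes differed between AAV.miS1 and vehicle, and 0 of 11 were under 0.05 before adjustment. The same fit called 0% of the 8311 genes and 0% of the 211 microRNA genes. At an unadjusted p under 0.05 there were 52 of all genes (0.626%) and 2 microRNA genes. DESeq2 called 0 genes, among them 0 of the 8 members to which it gave an adjusted p. It gave no p-value to let-7a-3, the most abundant member, or to let-7c and let-7e, so it did not test most of the family's counts. The let-7 log2 fold changes ran from -0.49 (let-7i) to 0.23 (let-7c), with a median of -0.15 and 8 of 11 below 0. The median was 0.06 over all genes and 0.05 over microRNA genes. The SE of the members was 0.83 to 1.22, so the 95% interval of let-7a-3 reached from -2.73 to 2.61.

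This width went with the scaling. TMM (trimmed mean of M-values), which equalises the bulk of genes between libraries, gave factors of 2.46, 0.376 and 1.90 to the AAV.miS1 libraries and 0.685, 0.775 and 1.07 to the vehicle libraries. Counts in protein-coding genes made up 11.5%, 2.42% and 8.72% of the AAV.miS1 libraries and 3.30%, 3.43% and 4.69% of the vehicle libraries, in the same order as the factors. When the 211 microRNA genes were fitted alone, edgeR again called 0 of 11 members and 0 of 211 microRNA genes (adjusted p of 0.990 for each member). In that fit the members' SE lay between 0.17 and 0.52, their median log2 fold change was -0.11, and they ran from -0.28 (let-7a-2) to 0.12 (miR-98). The log2 fold change of let-7a-3 was -0.13 with a 95% interval of -0.55 to 0.30, and that of let-7c was 0.05 with an interval of -0.32 to 0.43. With library size as the only scaling, 0 of 11 were called and all 11 were below 0, with a median of -0.24, while the median of all genes moved to 0.91 and that of microRNA genes to -0.15.

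The all-gene result turned on AAV.miS1 replicate 2. Without it, edgeR called 9 of 11 let-7 genes lower with AAV.miS1, with a median log2 fold change of -1.85, and 642 of 10174 genes in all (5.91% lower). In that fit 151 of 214 microRNA genes (70.6%) were called lower as well, with a median of -1.92. With the same 5 libraries and microRNA genes fitted alone, edgeR called 0 of 11, with a median of 0.00 and 5 of 11 below 0 (0 with an unadjusted p under 0.05). With library size as the only scaling, it called 0 of 11, with a median of -0.38 and all 11 below 0 (0 with an unadjusted p under 0.05). That fit called 50.1% of the 10174 genes higher and 0.56% lower, with a median of 1.47 over all genes. Without this library the difference of the let-7 sums was -2403 RPM (AAV.miS1 minus vehicle).

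**Figure D4:**
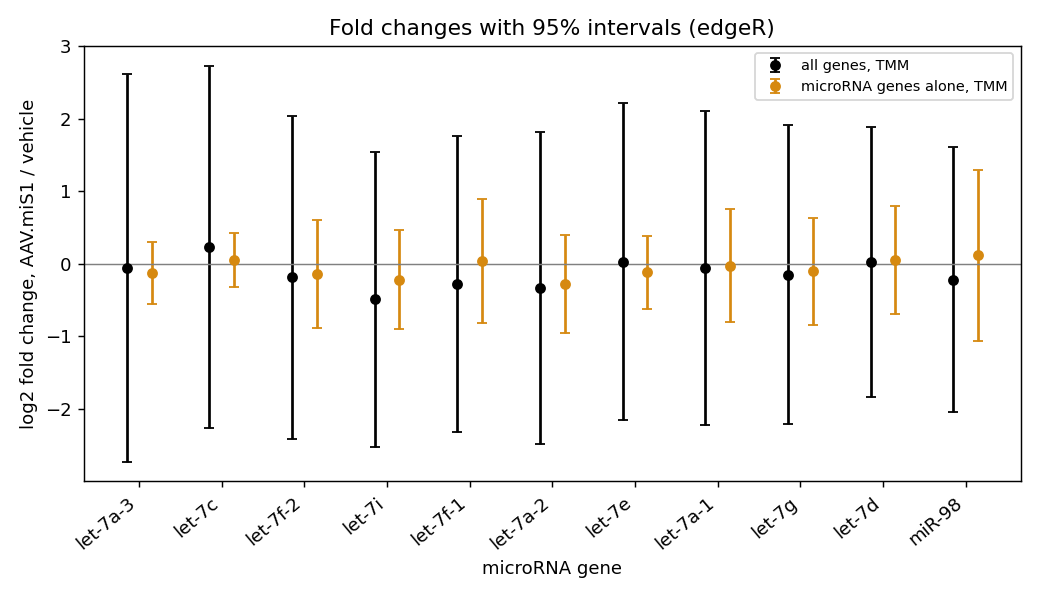
Points give the log2 fold change of each let-7 family gene, AAV.miS1 over vehicle, with 95% intervals as bars, from the edgeR fit over all genes (black) and the fit over microRNA genes alone (orange). Each interval includes 0 in both fits, and the black intervals are wider for each member.

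Some let-7 hairpins share a primary transcript with microRNAs of the miR-99/100 and miR-125 families, which have other seeds. The 6 partners tested had a median log2 fold change of 0.07 and edgeR called 0 of 6 (0 with an unadjusted p under 0.05, 0 by DESeq2). miR-125a, the neighbour of let-7e, stood at 16317, 30194 and 19104 RPM with AAV.miS1 and 23147, 27512 and 36128 RPM with vehicle. miR-99b, the third member of that cluster, stood at 209, 215 and 84.0 RPM against 185, 160.3 and 249 RPM. Members of a single cluster were thus read at very different depth, from at most 99.3 RPM for let-7e to at least 16317 RPM for miR-125a.

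Beside let-7c, miR-99a stood at 222, 417 and 214 RPM with AAV.miS1 and 226, 264 and 346 RPM with vehicle. miR-125b-2 stood at 129, 207 and 127 RPM against 122, 185 and 190.0 RPM. For all 3 genes of this cluster AAV.miS1 replicate 2 was the highest library. Beside let-7a-2, miR-125b-1 stood at 131, 266 and 126 RPM against 179, 167 and 200.1 RPM, and miR-100 at 6.73, 9.51 and 6.89 RPM against 11.3, 5.64 and 8.56 RPM.

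The pattern of the let-7 sum across the 6 libraries was compared with 71 microRNA genes of at least 100 CPM (counts scaled to 1000000 per library after TMM). Likeness was the root mean square difference of log2 CPM after centring each gene over the 6 libraries. The nearest were miR-30e and miR-148b (both 0.12), miR-191 and miR-93 (both 0.13) and miR-26a-1 (0.15). All of these values share the same library factors, so a small distance is a description only. Of the members themselves, let-7a-3 lay at 0.02 from the sum it dominates, let-7c at 0.17 and let-7a-2 at 0.19, while let-7f-1 (0.34), let-7i (0.36) and miR-98 (0.50) were farthest. At the other end of the list, miR-146a (0.91) and miR-21 (0.94), both known from immune cells, followed the let-7 sum least. Other leukocyte microRNAs among the 71 lay closer, with miR-146b (0.17) at rank 7 and miR-342 (0.47) at rank 60.

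The genes around let-7 were read in total RNA of the DCN, a library type not made for mature microRNAs, in which the 11 let-7 genes had 0 to 18 counts in all per library. Of 13383 genes tested there, edgeR called 7.22% higher and 0.284% lower with AAV.miS1. Values are CPM after TMM. Counts in genes ran from 2049685 to 4810852, except for vehicle replicate 2 with 87741. In that library 1 count is 10.3 CPM, so its values of 0 or 10.3 CPM below rest on 0 or 1 counts. Leukocyte genes were higher in the same samples, with 7 of 9 called higher and a median log2 fold change of 3.10. The summed level of the 11 leukocyte genes ran from 775 to 15695 CPM with AAV.miS1 and from 289 to 970.0 CPM with vehicle. The summed level of the 11 neuron genes ran from 36.1 to 3888 CPM with AAV.miS1 and from 2280.4 to 4172 CPM with vehicle, with 1 of 11 called lower and a median of -1.16. The part of these cell type differences in the results below was not tested.

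Of the regulators of let-7 maturation, 16 of 18 listed genes were matched and 14 tested. edgeR called 3 of 14 higher with AAV.miS1, against 7.22% of all genes, and 0 lower. DESeq2 called 3 higher, against 12.3% of all genes. The median log2 fold change of the 14 was 0.19, against 0.02 for all genes, with 4 of 14 below 0. TUT7, a uridylyl transferase that acts on let-7 precursors, ran from 81.2 through a median of 149 to 315 CPM in the 6 AAV.miS1 libraries, and stood at 71.0, 10.3, 63.7 and 57.3 CPM in the vehicle libraries. Every AAV.miS1 library exceeded every vehicle library, as for 7.47% of the genes tested. The log2 fold change was 1.55 (SE 0.40, edgeR adjusted p = 0.044).

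TRIM25, an RNA-binding ubiquitin ligase known to promote uridylation of the let-7 precursor and also an interferon-pathway gene, ran from 73.7 through 102 to 153 CPM with AAV.miS1. The vehicle libraries stood at 42.2, 31.0, 47.8 and 61.6 CPM, again with no overlap. Its log2 fold change was 1.17 (SE 0.23, edgeR adjusted p = 0.028). METTL1, a methyltransferase described as promoting let-7 processing, ran from 3.32 through 5.27 to 8.97 CPM, against 0.86, 0, 0.84 and 0.33 CPM with vehicle. The 0 CPM belongs to vehicle replicate 2, where 1 count would be 10.3 CPM, above every AAV.miS1 value. METTL1 had few reads, with 7 to 37 counts in AAV.miS1 libraries and 0 to 3 in vehicle libraries. Its log2 fold change was 3.06 (SE 0.53, edgeR adjusted p = 0.028).

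Other members of the LIN28 route were not called. TUT4, the close relative of TUT7, ran from 64.7 through 92.1 to 125 CPM with AAV.miS1 and stood at 95.9, 72.2, 95.9 and 71.8 CPM with vehicle (log2 fold change 0.17, edgeR adjusted p = 0.606). DIS3L2, the nuclease that degrades uridylated precursors, ran from 35.3 through 44.2 to 53.2 CPM against 58.1, 61.9, 47.2 and 42.5 CPM (log2 fold change -0.23, edgeR adjusted p = 0.407). LIN28B had 0 to 6 counts per library and was too low to test, and LIN28A was not matched. DICER1, which cuts let-7 hairpins and is itself a let-7 target, ran from 230.0 through 303 to 381 CPM against 345, 330.2, 311 and 271 CPM (log2 fold change -0.05, edgeR adjusted p = 0.886).

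Of 9 listed genes that host let-7 hairpins in human, 3 protein-coding ones were matched. HUWE1 (let-7f-2 and miR-98) stood at 849 to 1036 CPM with AAV.miS1 and 774 to 1032 CPM with vehicle. Its log2 fold change was -0.03 and those of WDR82 (let-7g) and SPACA6 (let-7e) were 0.19 and -0.21. By edgeR 0 of 3 were called and 0 were under 0.05 before adjustment, and DESeq2 called 0 as well.

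Among messenger RNAs known as let-7 targets, 46 of 50 listed were matched and 37 tested. edgeR called 6 of 37 higher, against 7.22% of all genes, and 0 lower. The median log2 fold change was 0.26, against 0.02 for all genes, with 11 of 37 below 0. DESeq2 called 9 higher, against 12.3% of all genes. HMGA2, the best known let-7 target, had 0 to 5 counts per library and was too low to test. The oncogenic transcription factor MYC ran from 13.9 through a median of 28.2 to 64.6 CPM with AAV.miS1, and stood at 10.75, 10.3, 10.9 and 6.59 CPM with vehicle. No AAV.miS1 library overlapped the vehicle range. Its log2 fold change was 1.71 (SE 0.47, edgeR adjusted p = 0.0499).

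The transforming growth factor beta receptor TGFBR1 ran from 82.5 through 290 to 396 CPM with AAV.miS1, against 94.6, 61.9, 69.6 and 78.1 CPM with vehicle. One AAV.miS1 library lay inside the vehicle range, and the log2 fold change was 1.74 (SE 0.39, edgeR adjusted p = 0.031). THBS1, a secreted matrix protein, had a log2 fold change of 1.996 (edgeR adjusted p = 0.049), with 20.3 to 113 CPM against 0 to 19.4 CPM. PRDM1, a transcription factor of differentiated lymphocytes, had a log2 fold change of 1.79 (edgeR adjusted p = 0.039), with 12.5 to 58.2 CPM against 7.58 to 10.3 CPM.

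PLAGL1, a zinc finger transcription factor, had a log2 fold change of 1.79 (edgeR adjusted p = 0.031), with 10.6 to 35.1 CPM with AAV.miS1 against 0 to 6.43 CPM with vehicle. DUSP1, a phosphatase that switches off MAP kinases and is induced by stress, had a log2 fold change of 1.05 (edgeR adjusted p = 0.046), with 26.0 to 68.3 CPM against 19.6 to 27.0 CPM. NRAS, a growth-signalling GTPase, stood at 100.3 ± 38.8 CPM (SD, n = 6) against 39.8 ± 21.9 (SD, n = 4; edgeR adjusted p = 0.076), and the related HRAS had a log2 fold change of 0.23. INSR, the insulin receptor, had the lowest log2 fold change of the list at -0.83 (edgeR unadjusted p = 0.0196, adjusted p = 0.116). Its 6 AAV.miS1 libraries, at 18.7 to 64.5 CPM, all lay below the 73.5 to 103 CPM of vehicle, as did 2.88% of the genes tested. The small RNA and DCN libraries carry no labels that tie them to the same animals, so a relation between let-7 and its targets could not be tested.

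**Figure D5:**
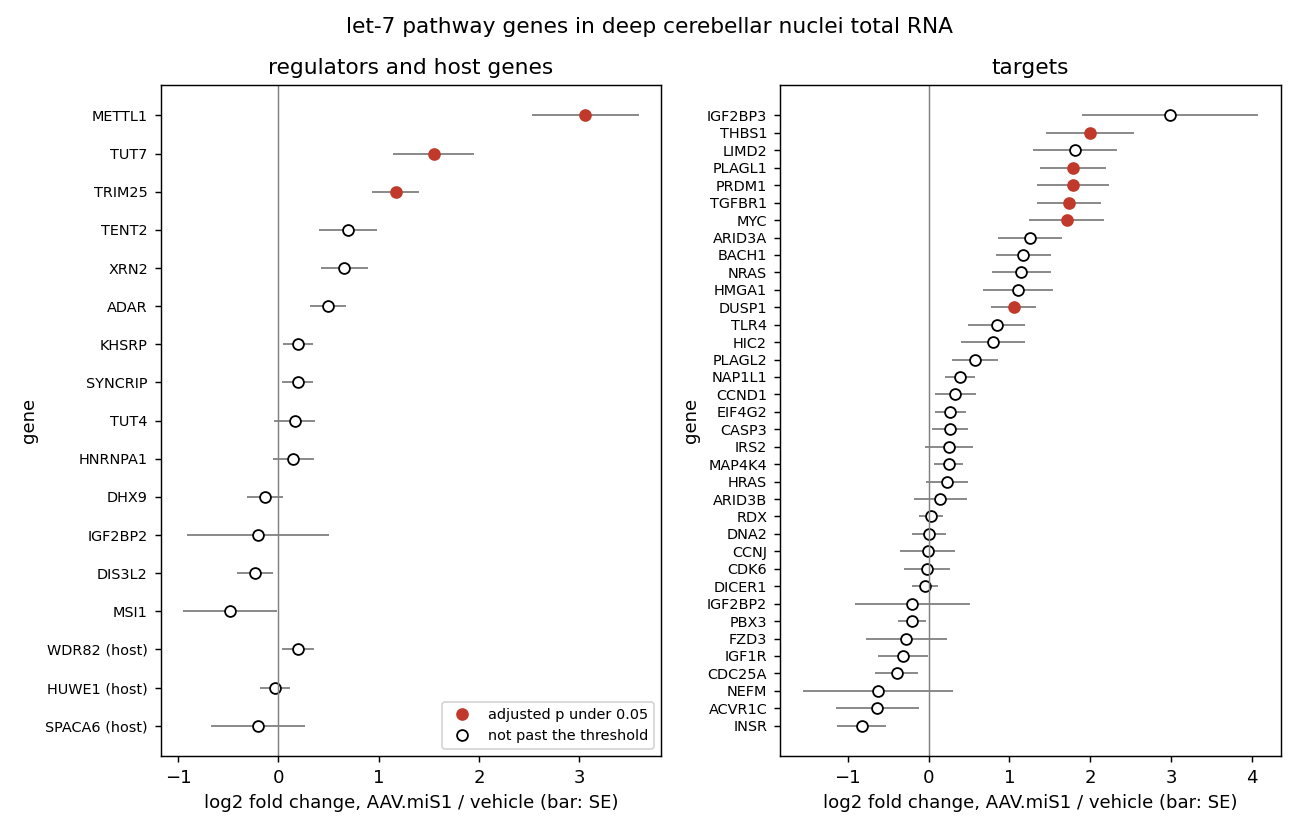
Points give the log2 fold change in DCN total RNA, AAV.miS1 over vehicle (6 and 4 libraries), of let-7 regulators and host genes (left) and let-7 targets (right, all tested but 1), with SE as bars and filled points at an edgeR adjusted p under 0.05. Filled points are 3 regulators and 6 targets, and all of them lie to the right of 0.

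These DCN calls depended on single libraries, as did those of all genes. No regulator and no target was called (0 in each list) without AAV.miS1 replicate 4 or without any one of vehicle replicates 1, 2, 3 and 4, and 0 targets were called without AAV.miS1 replicate 2. Of all genes, 3 were called without AAV.miS1 replicate 4, 1, 2, 0 and 2 without vehicle replicates 1 to 4, and 505 without AAV.miS1 replicate 2, against 1004 with all libraries. The log2 fold changes moved less, from 1.36 to 1.86 for MYC and from 1.24 to 1.68 for TUT7 over these fits, with adjusted p up to 0.162 and 0.145. Without AAV.miS1 replicate 5 there were 11 targets among 2300 genes called. Without replicates 1 and 3 there were 3 and 2 targets among 941 and 556 genes called.

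Small RNA was also sequenced from cerebellum after intmiS1, a redesigned construct, and after empty capsid, with 3 libraries each. None of these 6 libraries held a let-7 count. Of these, 5 held 347 to 2795 counts in genes and 0 microRNA counts. The remaining library, empty capsid replicate 2, held 277509 counts in genes with 321 microRNA counts, and a count of 0 there allows a let-7 share of up to 0.935% of microRNA counts. That limit lies below the 2.43% to 3.52% of the 6 libraries above. In those, however, microRNA genes took 23.0% to 30.9% of counts in genes, and counts came from another column of the deposited tables. The shares are therefore not comparable, and no other library of these groups had enough counts in genes to compare. Unmapped reads made up 99.95% to 99.99% of all tallied counts in the 5 libraries without microRNA counts, against 31.7% in empty capsid replicate 2.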

How the data were processed

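The deposited tables hold read counts per gene made by the authors. The submitters' processing notes name STAR 2.6.0c and DESeq2. The sources used here do not give the program that counted the small RNA reads, its treatment of reads fitting several hairpins, the genome build or the annotation. Counts of identifiers starting with the macaque gene prefix were kept; vector features were left out of library totals. Of 34847 identifiers 24009 had a symbol, and the 10838 without one held 41.6% to 49.6% of counts. DCN counts came from the reverse-strand column of the deposited tables.

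RPM is counts per 1000000 counts in genes. Tests used edgeR 4.0.16 (quasi-likelihood F test) in R 4.3.3, with filterByExpr (minimum count 10, total 15), TMM, Benjamini-Hochberg adjustment over all genes tested at 0.05 and a prior count of 0.125; DESeq2 1.42.0 was an alternative. SE values were derived from the F statistic. Python 3.11.15 prepared tables and figures. Counts were also simulated with the depth of each library and 1 dispersion (spread) for all genes, 0.307 for small RNA and 0.150 for DCN. Differences in composition between libraries were not simulated. On the small RNA simulation edgeR recovered 0 of 100 genes changed 2-fold and 2 of 100 changed 4-fold (8098 genes tested). For DCN it recovered 15 and 94 of 100 (13441 genes tested). So the all-gene small RNA test had little power in this setting.

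The members and gene lists were chosen with earlier results of these data known. Named genes are all members, all cluster partners and the 5 nearest of the other microRNAs by profile. In DCN they are LIN28A, LIN28B, TUT4, TUT7, DIS3L2, DICER1 and HMGA2, and up to 8 called members of each list by smallest p. The profile values of miR-146a, miR-146b, miR-21 and miR-342, and NRAS, HRAS and INSR, were added after their values were seen. The values of 1 listed target are not reported here. Marker lists matched 8 of 16 neuron, 4 of 7 oligodendrocyte, 7 of 9 leukocyte and 3 of 6 red cell microRNAs. Their tested members had median log2 fold changes of -0.15 (6 tested), 0.44 (4), 2.004 (7) and 2.21 (2), with 0 called by edgeR or DESeq2 and 0, 0, 1 and 1 at an unadjusted p under 0.05. In DCN, oligodendrocyte and astrocyte genes (6 each) had medians of -0.58 and -0.72 and 0 called by edgeR or DESeq2 (3 and 0 at an unadjusted p under 0.05). No mature sequence is shown because no sequence table was used here.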

Additional observations from a re-analysis of the deposited data

Results flagged for a closer look

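Of 28 groups of 4 or more DCN samples checked for a single distant sample, 1 stood out, and chance alone gives about 1 in 20. MYC in vehicle replicate 4 of DCN was 6.59 CPM, from 20 counts, while the nearest other vehicle library held 10.3 CPM (replicate 2, from 1 count), so the gap took up 0.865 of the group's range. Its value in this library is further from the AAV.miS1 libraries than those of the other vehicle libraries.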

How the results depend on the processing

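The count of let-7 genes called in small RNA was 0 under every alternative with all 6 libraries and 0 to 9 when 1 library was left out (9 without AAV.miS1 replicate 2). In the DESeq2 alternative, let-7a-3, let-7c and let-7e had no p-value. The difference of let-7 sums stayed below 0 (-2403 to -464 RPM with 1 library left out, -258.5 CPM after TMM). That of microRNA shares ran from -0.349 to 0.0781 percentage points, with 0.046 when the most abundant microRNA gene was left out of the total, a setting chosen after seeing the data. None of the member fold changes was past the threshold with 6 libraries, and their signs were not fixed. let-7a-3 and let-7a-1 were 0.0519 and 0.0503 with RLE size factors and 0.0519 and 0.0506 with DESeq2. let-7c, let-7d and let-7e were -0.0579, -0.10 and -0.24 with library size alone, -0.038, -0.22 and -0.23 with no filter, -0.16, -0.30 and -0.35 at a minimum count of 50, and -0.38, -0.27 and -0.53 with library size alone and without AAV.miS1 replicate 2. let-7f-1, let-7e and miR-98 were 0.0032, -0.0882 and 0.10 with total microRNA counts as library size (which moved the median of all genes to 1.19) and 0.0388, -0.12 and 0.12 with microRNA genes alone. Without AAV.miS1 replicate 2 in that fit, let-7g, let-7a-1, let-7f-1, let-7e and miR-98 were 0.0013, 0.0638, 0.28, -0.13 and 0.35 (both settings without this library were added after seeing the data). With 1 library left out the ranges were -1.79 to 0.41 for let-7a-1, -2.03 to 0.12 for let-7a-2, -1.96 to 0.38 for let-7a-3, -1.85 to 0.67 for let-7c, -1.71 to 0.48 for let-7d, -1.98 to 0.46 for let-7e, -1.58 to 0.15 for let-7f-1, -1.87 to 0.28 for let-7f-2, -1.84 to 0.29 for let-7g, -1.92 to -0.12 for let-7i and -1.52 to 0.24 for miR-98. The cause of these turns was not tested.

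The labels do not say whether replicate numbers pair the small RNA libraries. Correlations of same-numbered libraries were -0.064, 0.204 and 0.262 over 1255 genes. AAV.miS1 replicates 2 and 3 correlated best with their own number, and replicate 1 with vehicle replicate 3 (0.290). With 3 libraries per group these values cannot settle a pairing. With the replicate block 0 of 11 members were called, and let-7c, let-7d and let-7e were -0.73, -0.67 and -0.93. In DCN, where replicate numbers were given in accession order and pair nothing, regulators called ran from 0 to 4 and targets from 0 to 11 with 1 library left out, while all genes called ran from 0 to 2300, host genes stayed at 0, and targets numbered 3 with the unstranded column.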
